A study of Ovis aries with 9 samples.

Results

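The genes described here are 49 regulators and structural parts of cell division, a list of names that runs from the cyclins and their kinases to the spindle checkpoint, kinetochore, mitotic motors, condensin and the inhibitors of cyclin-dependent kinases. A locus of the expression table counted as a member when its gene name, or 1 of the names joined in it, was on the list, and the locus of highest mean was kept where a name had several. Of the 49 names 48 matched a locus, out of 22605 loci in the table. Of those 48 loci 46 had 1 FPKM or more in 3 or more libraries and were tested among 13086 loci in all. FPKM count fragments relative to transcript length and to the mapped fragments of the library, so levels of different genes can be set side by side within a library. NCAPH, a condensin subunit, matched no locus by name; the locus carrying the gene number that RefSeq gives to NCAPH was named ITPRIPL1 in the table and was not counted. CCNE1, cyclin E1, and CDC25C, a phosphatase that activates CDK1 at the entry into mitosis, matched but did not reach the level needed for testing.

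RNA came from the longissimus dorsi, the long muscle of the back, in fetuses of Chinese merino sheep on days 85 (D85), 105 (D105) and 135 (D135) of gestation, as 3 libraries each. All groups share the breed and the muscle, and the labels name no treatment, genotype or sex. Whether each library is a different fetus is not stated, so p-values reflect only how these libraries spread, and that spread may be technical. The defining markers of skeletal muscle fibres were present, with all 7 on the list tested and summed levels of 7208 FPKM or more in every library.

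Dividing cells pass through a fixed sequence of phases driven by cyclin-dependent kinases, each switched on by its cyclin partner. D-type cyclins with CDK4 act in G1, cyclin E and cyclin A with CDK2 around DNA replication, and cyclins A and B with CDK1 at mitosis, when condensin compacts the chromosomes, kinetochores attach them to the spindle and the checkpoint delays separation until all are attached. In fetal muscle the dividing cells include myoblasts and satellite cells, together with connective tissue and vessel cells, while muscle fibre nuclei have left the cycle. Many mitotic genes are transcribed only in cycling cells. In bulk RNA, fewer cycling cells and less of these RNAs per cell cannot be told apart.

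Totals ranged from 395797 to 489270 FPKM per library. The table holds no counts; from the steps among low values, depth lay between 0.993 and 1.20 of that in the first D85 library, with the D135 libraries deepest. The median locus was lower at D135, by a log2 change of -0.33 against D105 and -0.35 against D85, and summed fibre markers were higher, at 16923 to 20482 FPKM at D135 against 8863 to 11942 FPKM at D105, with 4 of the 7 called higher. Since FPKM are shares of a library's total, such a shift can move every gene, and results are therefore also given after median-of-ratios scaling, which sets the median locus near 0. D105 replicate 2 stood apart from D105 replicates 1 and 3 in several marker sums. Its summed tendon and cartilage markers were at 332 FPKM against 15.2 and 19.8 FPKM, fibroblast markers at 6667 against 2455 and 2473 FPKM, and adipocyte markers at 114 against 5.65 and 7.71 FPKM. Leukocyte markers were at 38.2 FPKM in it against 22.2 and 16.7 FPKM, and satellite cell and myoblast markers at 57.8 against 90.2 and 105 FPKM.

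Nearly all of these genes were lower at D135 than at D105. Of the 46 tested, 43 fell, 0 rose and 3 (CDK2, BIRC5 and CDKN1B) did not pass limma's test at an adjusted p of 0.05. Among all loci 39.5% were called, 35% lower and 4.47% higher. In 45 of the 46 every D135 library was below every D105 library, as at 47.7% of all loci, and in 0 was every one above, as at 6.43%. The members' median log2 change was -1.17, against -0.33 over all loci. The median of their folds in mean FPKM was 3.25, against 1.36 over all loci with a level at both days, D135 being lower. By at least 2-fold, 40 of the 46 were lower, as were 14.6% of all loci with a level at both days. After median-of-ratios scaling 33 members fell and 0 rose, where 6.96% of all loci were called lower and 10.6% higher, and the members' median was -0.84. Without D105 replicate 2, 41 of the 46 were called lower at D135 than at D105, and 43 lower than at D85.

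**Figure D1:**
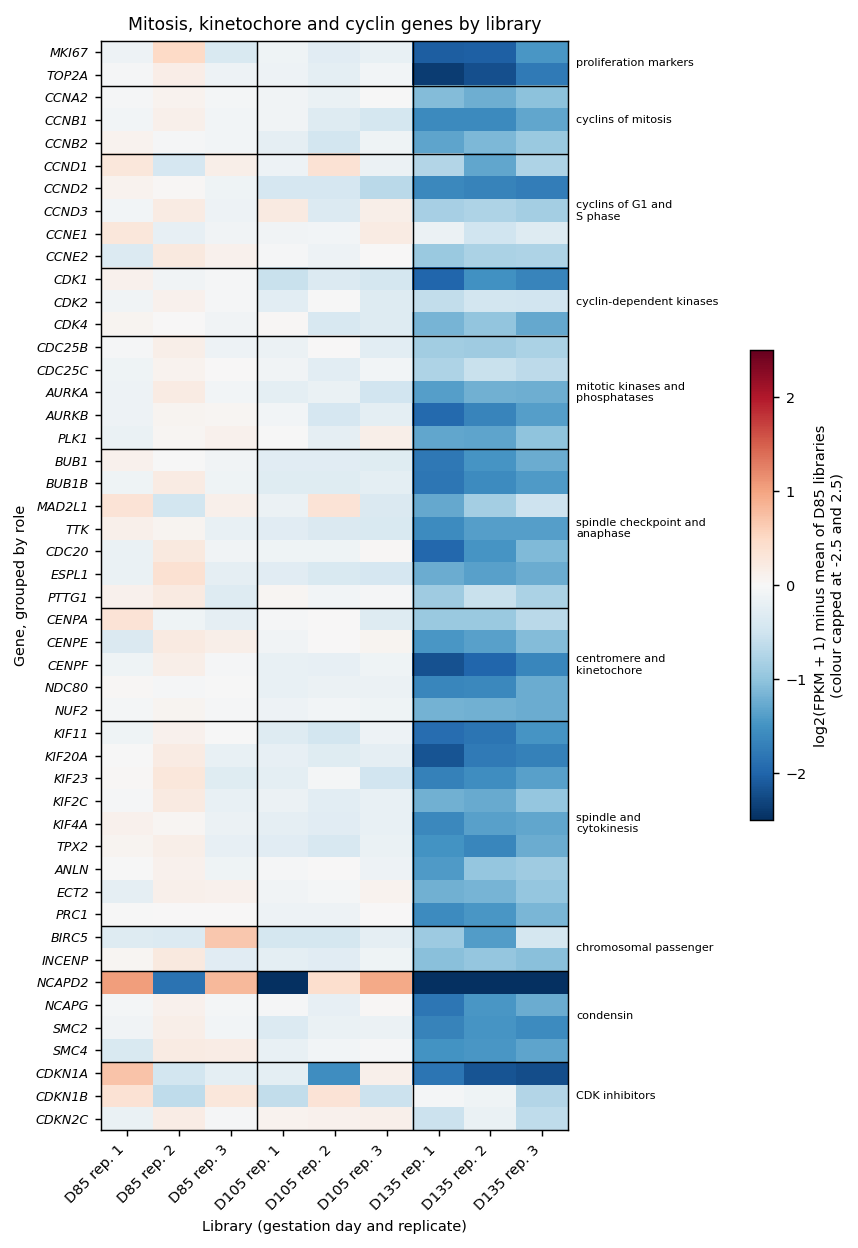
Each row is a gene and each column a library; colour gives log2(FPKM + 1) minus the mean of the 3 D85 libraries, with genes grouped by role and colour capped at -2.5 and 2.5. The 3 D135 columns are below the D85 mean for every gene drawn, CDKN1B included, and NCAPD2 switches between high and low within D85 and within D105.

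Between D105 and D85 none of the 46 was called in either direction by limma, where 0.199% of all loci were called, 0.145% higher and 0.0535% lower. At an unadjusted p under 0.05 there were 3 members, beside 1611 of the 13086 loci. Those members were CCND2, CDK1 and TTK, all with lower values at D105. The estimates leaned the same way: 43 of the 46 were below 0, with a median log2 change of -0.20 against -0.02 over all loci. In 15 members every D105 library was below every D85 library, a pattern found at 10.4% of all loci, and in 0 members was every D105 library above, against 8% of all loci. Over the whole span 45 of the 46 fell between D85 and D135, with CDKN1B not passing, while of all loci 46.6% were called, 39.7% lower and 6.9% higher. In 44 members the D135 and D85 libraries did not overlap, D135 being lower, as at 48.8% of all loci, while 9.42% of all loci had every D135 library above and 0 members did. After median-of-ratios scaling 37 members fell and 0 rose, where 12.5% of all loci were called lower and 14.9% higher. Of the 45 calls, 40 were kept with each library left out. The 2 intervals share the D105 libraries, and the outer comparison shares its libraries with both.

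Whether the later change differed from the earlier one was tested by setting D105 against the midpoint of D85 and D135. The later interval is the longer one, so this compares the changes and not the daily rates. A steady daily fall on the log scale would also put D105 above the midpoint. D105 was called above the midpoint in 2 of 46 members, TOP2A and NUF2 (limma adjusted p = 0.0499 for TOP2A and 0.0454 for NUF2), and below it in 0. Of all loci 0.352% were called, 0.275% above and 0.0764% below. At an unadjusted p under 0.05 it reached 38 of the 46 members and 3190 of the 13086 loci. With any library but D135 replicate 3 left out the count was 0, and without D135 replicate 3 it was 4. After median-of-ratios scaling it was also 0, where 0.0382% of all loci were called above.

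**Figure D2:**
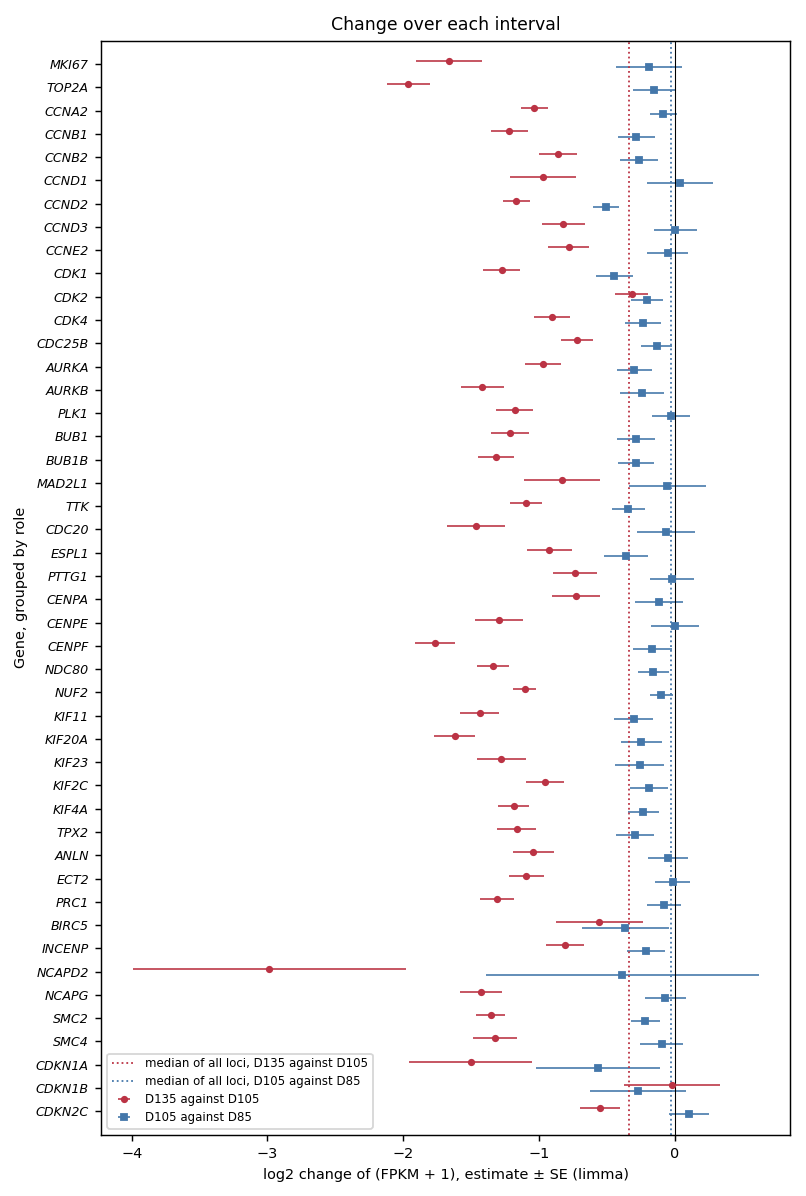
Points give the limma log2 change of FPKM + 1 with its standard error for each tested gene, circles for D135 against D105 and squares for D105 against D85; dotted lines mark the median of all loci in each comparison. The circles have a median of -1.17 and the squares one of -0.20, and CDKN1B has its circle near 0.

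MKI67 and TOP2A, a nuclear protein and a DNA topoisomerase that are standard markers of cycling cells, were among the highest members. TOP2A (MSTRG.5668) was at 26.1, 30.1 and 24.5 FPKM in the D85 libraries, 24.5, 22.5 and 25.3 FPKM in the D105 libraries and 4.38, 5.06 and 7.18 FPKM in the D135 libraries. Its level at D135 was 4.35-fold below that at D105 (log2 change -1.96 ± 0.16 SE, adjusted p = 0.000622), with no overlap between these days, while the D85 and D105 values overlapped. MKI67 (MSTRG.9554) was at 9.48, 15.1 and 7.78 FPKM at D85, 9.59, 8.40 and 9.06 FPKM at D105 and 1.74, 1.76 and 3.19 FPKM at D135. It fell 4.05-fold between D105 and D135 (log2 change -1.66 ± 0.25 SE, adjusted p = 0.00267). A second locus named MKI67, holding only an assembled transcript, was at 1.04, 0.654 and 1.42 FPKM at D135 against 6.84, 6.28 and 2.99 FPKM at D105.

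All 3 cyclins of mitosis fell between D105 and D135, where 35% of all loci were called lower. CCNB1, cyclin B1, the activating partner of CDK1, was at 3.61, 4.24 and 3.61 FPKM at D85, 3.54, 2.83 and 2.57 FPKM at D105 and 0.586, 0.590 and 0.946 FPKM at D135. The D135 libraries lay below all others (log2 change -1.22 ± 0.14 SE against D105, adjusted p = 0.00113), and the D105 libraries also lay below every D85 library, a step that did not pass the test (adjusted p = 0.450). CCNB2, cyclin B2, was at 3.19, 2.83 and 2.76 FPKM at D85, 2.36, 1.87 and 2.64 FPKM at D105 and 0.570, 0.811 and 1.08 FPKM at D135 (log2 change -0.86 ± 0.14 SE between the later days, adjusted p = 0.00382). The locus of CCNA2, cyclin A2, is joined with BBS7, a ciliary gene next to it, so its fragments cannot be divided between the genes. That locus was at 3.58, 3.96 and 3.52 FPKM at D85, 3.42, 3.19 and 3.67 FPKM at D105 and 1.20, 1.001 and 1.29 FPKM at D135, a 2.95-fold fall between the later days (adjusted p = 0.000837). Another locus with the same product description as CCNB1 reached at most 1.88 FPKM in any library.

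The cyclins of G1 and S phase were led by CCND2, cyclin D2, whose values were lower at each later day. It was at 41.9, 40.3 and 36.7 FPKM at D85, 29.3, 29.1 and 24.5 FPKM at D105 and 12.3, 11.7 and 11.2 FPKM at D135, with no overlap between any of the days. The step between D85 and D105 did not pass after adjustment (log2 change -0.51 ± 0.10 SE, adjusted p = 0.121), while the step to D135 did (-1.17 ± 0.10 SE, adjusted p = 0.000637) and also after median-of-ratios scaling (adjusted p = 0.00191). CCND3, cyclin D3, which is linked to the differentiation of muscle cells, was at 15.3, 18.6 and 14.7 FPKM at D85, 18.9, 12.5 and 17.8 FPKM at D105 and 8.60, 9.04 and 8.52 FPKM at D135. Its D85 and D105 libraries overlapped, and its fall at D135 (log2 change -0.82 ± 0.16 SE against D105, adjusted p = 0.00653) did not pass after median-of-ratios scaling (adjusted p = 0.137). CCND1, cyclin D1, was the lowest of the D-type cyclins, at 5.32, 2.88 and 4.74 FPKM at D85, 3.79, 5.71 and 3.72 FPKM at D105 and 2.14, 1.11 and 2.04 FPKM at D135. Its call against D105 (log2 change -0.97 ± 0.24 SE, adjusted p = 0.0164) was lost without D135 replicate 2 (adjusted p = 0.0544) and after median-of-ratios scaling (adjusted p = 0.110).

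Of the E-type cyclins, which bind CDK2, CCNE2 was tested, at 2.16, 3.70 and 3.28 FPKM at D85, 2.89, 2.65 and 3.02 FPKM at D105 and 1.10, 1.29 and 1.34 FPKM at D135. It fell 2.29-fold between the later days (log2 change -0.78 ± 0.15 SE, adjusted p = 0.00653, or 0.0667 after median-of-ratios scaling). CCNE1 was near 1 FPKM or below in most libraries, at 1.52, 0.786 and 0.950 FPKM at D85, 0.947, 0.966 and 1.37 FPKM at D105 and 0.873, 0.455 and 0.650 FPKM at D135, and was not tested.

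Of the 3 cyclin-dependent kinases, CDK1 and CDK4 fell and CDK2 did not pass the test between the later days. CDK1, the kinase of mitosis, was at 6.92, 5.91 and 6.12 FPKM at D85, 3.98, 4.78 and 4.37 FPKM at D105 and 0.848, 1.56 and 1.31 FPKM at D135. No 2 days overlapped, and the fall at D135 was 3.54-fold against D105 (log2 change -1.28 ± 0.14 SE, adjusted p = 0.00101) and 5.10-fold against D85. CDK4, the kinase of the D-type cyclins, was the highest tested member at D135, with 35.5, 33.8 and 31.7 FPKM at D85, 34.1, 25.2 and 26.7 FPKM at D105 and 14.5, 16.6 and 13.2 FPKM at D135. Its fall against D105 was 1.94-fold (log2 change -0.91 ± 0.13 SE, adjusted p = 0.00260, or 0.0567 after median-of-ratios scaling). CDK2, which acts around DNA replication, was at 1.80, 2.19 and 1.91 FPKM at D85, 1.46, 1.93 and 1.36 FPKM at D105 and 0.927, 1.16 and 1.12 FPKM at D135. Its D135 libraries were below every other library, but the change against D105 did not pass (log2 change -0.32 ± 0.12 SE, adjusted p = 0.0684). Against D85 it did (adjusted p = 0.00932), though not after median-of-ratios scaling (adjusted p = 0.168).

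**Figure D3:**
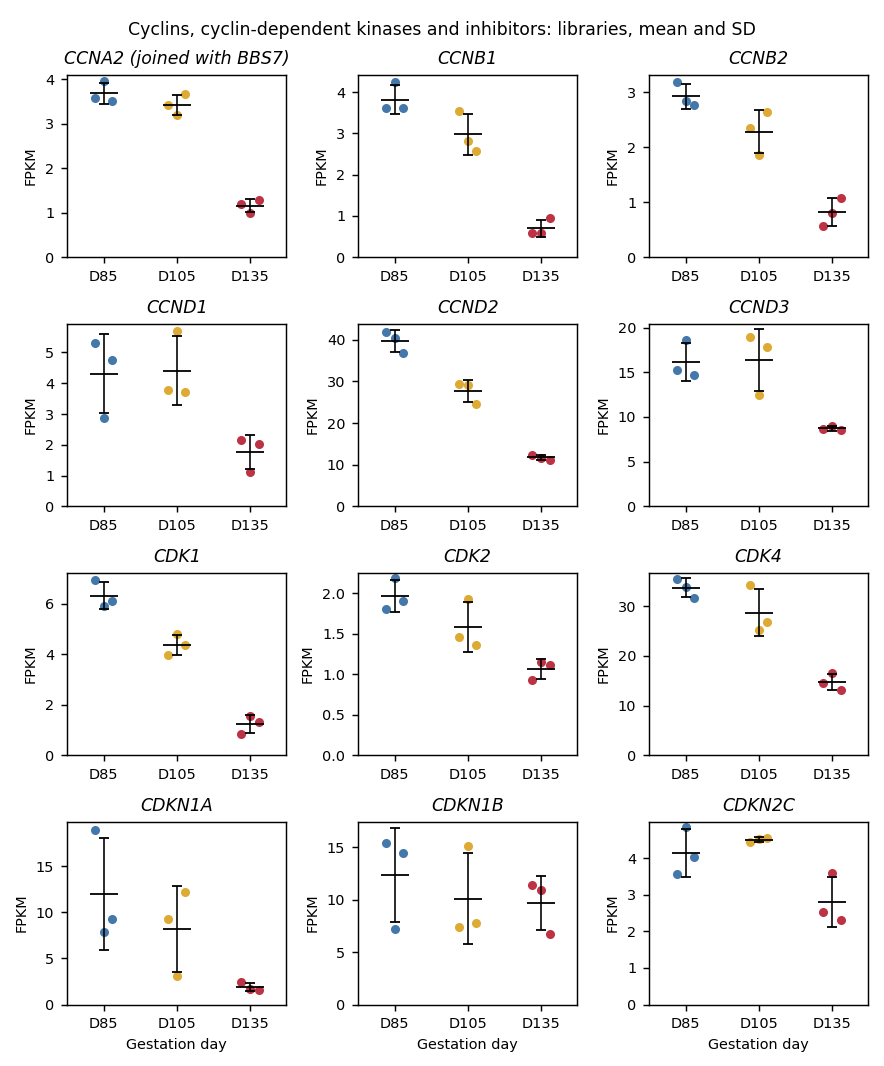
Dots give the FPKM of each library, and bars the mean and SD of the 3 libraries of a day, for 12 genes; the axes differ between panels and start at 0. CCND2 and CDK1 libraries are lower at each later day, CCND3 libraries overlap between D85 and D105, and the CDKN1B libraries of all days overlap.

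Ratios between genes within a library do not depend on how libraries are scaled. CDK1 stood at 0.195, 0.175 and 0.193 of the CDK4 level at D85, 0.117, 0.190 and 0.163 at D105 and 0.0584, 0.0939 and 0.0993 at D135. The ratio was lower in every D135 library than in any earlier one. Summed over 21 checkpoint, kinetochore, spindle and cytokinesis genes, the level relative to the sum of the D-type cyclins and CDK4 was 1.07, 1.22 and 1.12 at D85, 1.04, 1.25 and 1.27 at D105 and 0.539, 0.673 and 0.949 at D135. The D135 libraries were again all below the earlier ones, with D135 replicate 3 nearest to them. CCND2 stood at 2.74, 2.17 and 2.504 times CCND3 at D85, 1.55, 2.34 and 1.38 times at D105 and 1.43, 1.29 and 1.32 times at D135, so D135 overlapped D105 but not D85. These pairs were picked with the values known and carry no test.

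All 4 tested kinases and phosphatases that drive mitosis fell between D105 and D135, also after median-of-ratios scaling. The share of all loci called lower was 35%, or 6.96% after that scaling. AURKB, aurora kinase B, the enzyme of the chromosomal passenger complex, was at 6.22, 7.27 and 7.21 FPKM at D85, 6.56, 4.88 and 5.69 FPKM at D105 and 1.06, 1.51 and 2.02 FPKM at D135. Its D135 libraries were all below the lowest earlier library (log2 change -1.42 ± 0.16 SE against D105, adjusted p = 0.00120). AURKA, which acts at the spindle poles, averaged 0.762 ± 0.110 FPKM at D135 and 2.46 ± 0.372 FPKM at D105 (SD, n = 3 each). PLK1, polo-like kinase, averaged 1.96 ± 0.360 FPKM at D135 and 5.72 ± 0.859 FPKM at D105. CDC25B, a phosphatase that switches CDK1 on, averaged 1.07 ± 0.0712 FPKM at D135 and 2.42 ± 0.342 FPKM at D105. No library of D135 overlapped one of D105 in these genes, D135 being lower, as at 47.7% of all loci. CDC25C was under 1 FPKM in every library, at 0.0737, 0.257 and 0.165 FPKM at D135 against 0.725, 0.527 and 0.755 FPKM at D105.

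Of the other 2 genes of the passenger complex, INCENP fell between D105 and D135 and BIRC5 did not pass the test. INCENP, its scaffold, was at 3.76, 4.44 and 2.80 FPKM at D85, 2.89, 2.79 and 3.29 FPKM at D105 and 1.23, 1.35 and 1.24 FPKM at D135, a 2.35-fold fall between the later days (adjusted p = 0.00443). BIRC5, survivin, varied within days, at 2.07, 1.99 and 5.06 FPKM at D85, 1.83, 1.82 and 2.26 FPKM at D105 and 1.03, 0.441 and 1.80 FPKM at D135. Its change against D105 did not pass (log2 change -0.55 ± 0.32 SE, adjusted p = 0.202). The call against D85 (adjusted p = 0.0461) was lost without D85 replicates 1 or 3, without any D105 library and without D135 replicates 1 or 2, up to an adjusted p of 0.141, and after median-of-ratios (adjusted p = 0.204) and quantile scaling (adjusted p = 0.224).

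Each of the 7 genes of the spindle checkpoint and of anaphase fell between D105 and D135, and 5 of them after median-of-ratios scaling. The matching shares of all loci called lower were 35% and 6.96%. CDC20, which activates the anaphase-promoting complex, was at 6.08, 8.46 and 6.47 FPKM at D85, 6.38, 6.32 and 7.14 FPKM at D105 and 1.02, 1.84 and 2.67 FPKM at D135. It spread 2.61-fold within D135, and its D85 and D105 libraries overlapped (log2 change -1.46 ± 0.21 SE against D105, adjusted p = 0.00258). BUB1, a checkpoint kinase, was at 6.54, 6.03 and 5.59 FPKM at D85, 4.78, 4.81 and 4.75 FPKM at D105 and 1.04, 1.54 and 1.97 FPKM at D135. BUB1B, which holds CDC20 in check, was at 6.03, 7.78 and 6.08 FPKM at D85, 5.12, 5.17 and 5.39 FPKM at D105 and 1.17, 1.54 and 1.83 FPKM at D135. For both, no 2 days overlapped and the step at D135 passed (adjusted p = 0.00124 for BUB1 and 0.000943 for BUB1B), while that between D85 and D105 did not (adjusted p = 0.458 for BUB1 and 0.432 for BUB1B).

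TTK, the MPS1 checkpoint kinase, had the largest fold change against D105 in this group, from levels that were low throughout. It was at 3.20, 3.06 and 2.39 FPKM at D85, 2.19, 2.004 and 1.97 FPKM at D105 and 0.303, 0.496 and 0.496 FPKM at D135, 4.76-fold lower at D135 than at D105 and 6.68-fold lower than at D85. ESPL1, separase, the protease that opens cohesin, fell 3.27-fold against D105, and PTTG1, securin, its inhibitor, 2.25-fold. The PTTG1 change did not pass after median-of-ratios scaling (adjusted p = 0.0863). MAD2L1, the checkpoint protein MAD2, was at 4.79, 2.32 and 4.01 FPKM at D85, 3.15, 4.79 and 2.59 FPKM at D105 and 0.894, 1.54 and 2.20 FPKM at D135. Its call against D105 (adjusted p = 0.0480) was lost without D85 replicates 1 or 3, any D105 library, or D135 replicates 1 or 2, with adjusted p up to 0.137, and after median-of-ratios scaling (adjusted p = 0.271).

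The 5 centromere and kinetochore genes fell between D105 and D135, 4 of them also after median-of-ratios scaling. Lower calls were made at 35% of all loci, or 6.96% after that scaling. CENPF, a large kinetochore protein, was at 9.61, 11.7 and 10.2 FPKM at D85, 9.02, 8.97 and 9.68 FPKM at D105 and 1.54, 1.89 and 2.71 FPKM at D135 (log2 change -1.76 ± 0.15 SE against D105, adjusted p = 0.000625). NDC80 and NUF2 are partners in the complex that binds spindle microtubules, and they moved by similar folds, NDC80 to 1.25 ± 0.352 FPKM at D135 against 4.63 ± 0.106 FPKM at D105 and NUF2 to 0.793 ± 0.0296 FPKM at D135 against 2.86 ± 0.0766 FPKM at D105 (SD, n = 3 each). NUF2 was the steadier within D135, at 0.816, 0.803 and 0.759 FPKM. CENPE, a kinetochore motor, had the largest fold of the group, at 0.488 ± 0.208 FPKM at D135 against 2.63 ± 0.210 FPKM at D105, or 5.39-fold lower. CENPA, the histone variant that marks centromeres, was at 0.438 ± 0.149 FPKM at D135 against 1.39 ± 0.280 FPKM at D105. Its call (adjusted p = 0.0148) was lost without D135 replicate 2 (adjusted p = 0.0514) and after median-of-ratios scaling (adjusted p = 0.0649).

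Among the 9 genes of the spindle and of cytokinesis 9 fell between D105 and D135, and 9 after median-of-ratios scaling. The matching shares of all loci called lower were again 35% and 6.96%. KIF20A, a motor of the late spindle, was at 10.1, 11.95 and 8.83 FPKM at D85, 8.71, 8.14 and 8.59 FPKM at D105 and 1.53, 2.29 and 2.51 FPKM at D135 (log2 change -1.62 ± 0.15 SE against D105, adjusted p = 0.000830). KIF11, the motor that pushes the spindle poles apart, was at 6.75, 7.97 and 7.28 FPKM at D85, 5.64, 5.08 and 6.59 FPKM at D105 and 1.21, 1.34 and 1.99 FPKM at D135. For both motors the libraries of the 3 days did not overlap. KIF23, which bundles microtubules at the cleavage site, was at 4.87, 6.02 and 3.65 FPKM at D85, 3.84, 4.58 and 3.14 FPKM at D105 and 0.782, 0.959 and 1.25 FPKM at D135, and its D85 and D105 values overlapped. Another locus with the same product description as KIF23 reached at most 1.12 FPKM.

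Folds of the remaining spindle genes against D105 were 4.23 for KIF2C, which takes microtubules apart, and 3.31 for the chromosome motor KIF4A. They were 2.90 for TPX2, which activates AURKA, 3.15 for PRC1, a midzone bundler, 3.31 for ECT2, which starts the cleavage furrow, and 2.66 for ANLN, anillin of the contractile ring. In all 6 the libraries of D135 were below every D105 library, as at 47.7% of all loci.

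All 4 tested condensin genes fell between D105 and D135, 3 of them also after median-of-ratios scaling. Lower calls were made at 35% of all loci, or 6.96% after that scaling. SMC2, an arm of the condensin ring, was at 7.53, 8.997 and 7.57 FPKM at D85, 6.15, 6.99 and 7.14 FPKM at D105 and 1.84, 2.24 and 2.01 FPKM at D135, a 3.33-fold fall between the later days (log2 change -1.36 ± 0.11 SE, adjusted p = 0.000590). SMC4, the partner arm, averaged 2.47 ± 0.235 FPKM at D135 and 7.68 ± 0.495 FPKM at D105, and NCAPG, a regulatory subunit, 1.24 ± 0.435 FPKM at D135 and 4.95 ± 0.481 FPKM at D105 (SD, n = 3 each). A second locus named NCAPG, of 1 assembled transcript, was at 2.46, 1.31 and 0.00 FPKM at D135 against 11.4, 2.71 and 2.77 FPKM at D105, and 4 further loci with the same product description stayed at or below 0.904 FPKM.

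NCAPD2 (MSTRG.2773), another regulatory subunit, jumped between libraries of a day. It was at 72.8, 9.03 and 62.0 FPKM in D85 replicates 1, 2 and 3, at 5.26, 47.3 and 68.2 FPKM in D105 replicates 1, 2 and 3, and at 2.38, 2.53 and 2.54 FPKM at D135. The low D85 and D105 libraries were near SMC2 and SMC4, and the high ones were at 47.3 FPKM or more. Its locus holds 3 reference and 5 assembled transcripts, and in RefSeq its neighbours are GAPDH and a small nucleolar RNA; which transcripts the high values came from was not tested. GAPDH, a glycolytic enzyme, was at 655, 703 and 645 FPKM at D85, 962, 922 and 1090 FPKM at D105 and 2839, 4494 and 2755 FPKM at D135. These levels cannot tell which transcripts held the fragments of NCAPD2. The call of NCAPD2 against D105 (log2 change -2.99 ± 1.01 SE, adjusted p = 0.0466) was lost without D85 replicates 1 or 3, D105 replicates 2 or 3, or any D135 library, with adjusted p up to 0.133, and after median-of-ratios scaling (adjusted p = 0.121). Its D135 libraries were all below the lowest earlier one.

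**Figure D4:**
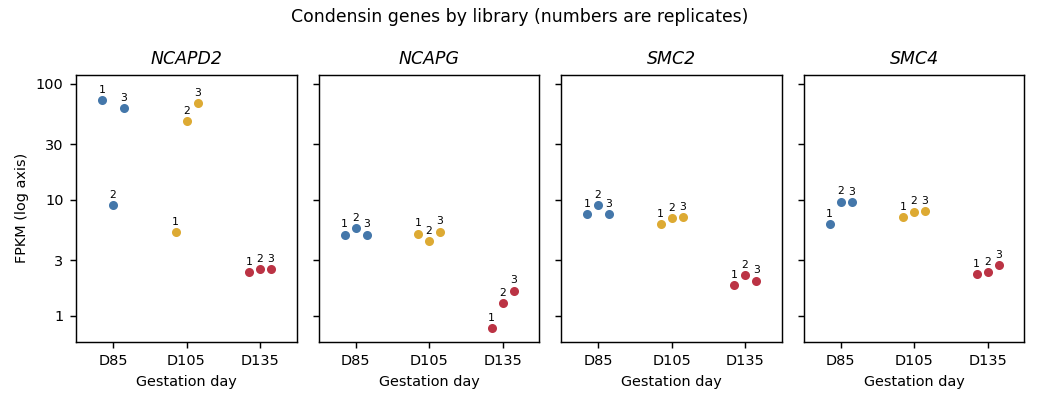
FPKM of 4 condensin genes by library on a log axis, with replicate numbers beside the dots. NCAPD2 has D85 replicate 2 and D105 replicate 1 near 9 and 5 FPKM and the other early libraries at 47.3 FPKM or above, while NCAPG, SMC2 and SMC4 vary by at most 2.11-fold within a day.

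Of the 3 inhibitors of cyclin-dependent kinases, CDKN1A and CDKN2C fell between D105 and D135 and CDKN1B did not pass the test. After median-of-ratios scaling 0 of the 3 passed between these days. The share of all loci called lower was 35%, or 6.96% after that scaling. CDKN1B, p27, which restrains CDK2 complexes, was at 15.4, 7.24 and 14.5 FPKM at D85, 7.39, 15.1 and 7.81 FPKM at D105 and 11.4, 10.9 and 6.74 FPKM at D135. The libraries of all days overlapped and no comparison passed (log2 change -0.02 ± 0.35 SE for D135 against D105, adjusted p = 0.972); the estimate was 0.40 after median-of-ratios scaling (adjusted p = 0.499). CDKN2C, p18, an inhibitor of CDK4, was at 3.57, 4.86 and 4.03 FPKM at D85, 4.45, 4.52 and 4.56 FPKM at D105 and 2.53, 3.59 and 2.31 FPKM at D135. Its fall against D105 (log2 change -0.55 ± 0.15 SE, adjusted p = 0.0204) was lost without D105 replicates 1 or 3 and without D135 replicates 1 or 3, up to an adjusted p of 0.0636, and was -0.19 after median-of-ratios scaling (adjusted p = 0.449). Its call against D85 was also lost in several fits with a library left out. After median-of-ratios scaling that change was -0.08 (adjusted p = 0.748).

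CDKN1A, p21, which is induced in myoblasts leaving the cycle and by damage signals, was at 18.9, 7.83 and 9.23 FPKM at D85, 9.23, 3.13 and 12.2 FPKM at D105 and 2.44, 1.71 and 1.62 FPKM at D135. D105 replicate 2 was low for its day, yet above every D135 library. The fall against D105 (log2 change -1.50 ± 0.46 SE, adjusted p = 0.0322) was lost without D105 replicates 1 or 3 or any D135 library, up to an adjusted p of 0.0935, and after median-of-ratios scaling (adjusted p = 0.122). Against D85 the fall was 6.23-fold (log2 change -2.07), and its call was kept with each library left out. It also passed after median-of-ratios (adjusted p = 0.0256) and quantile scaling (adjusted p = 0.0277). Relative to CCND2 in the same library, CDKN1B stood at 0.928, 0.932 and 0.6002 at D135 against 0.252, 0.519 and 0.318 at D105, without overlap and with no test.

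Many members shared an order among the D135 libraries. D135 replicate 3 was the highest of its day in 32 of the 46 tested members and replicate 1 the lowest in 31, where replicate 3 was the highest at 33.9% of all loci and replicate 1 the lowest at 27.7%. At D85 replicate 2 was the highest in 30 of the 46, against 42.9% of all loci. At D105 the highest library was replicate 3 in 22 members, against 29.2% of all loci. Summed fibroblast markers at D135 had the same order, with 1362, 1957 and 3218 FPKM in replicates 1, 2 and 3, and so had summed tendon and cartilage markers with 4.01, 58.2 and 118 FPKM. Leukocyte markers, with 14.7, 17.5 and 19.7 FPKM, erythroid markers, with 1.88, 2.69 and 3.65 FPKM, and fibre markers, with 16923, 20237 and 20482 FPKM, were ordered in the same way. Summed satellite cell and myoblast markers were not, with 51.8, 52.7 and 43.3 FPKM, nor were the endothelial, smooth muscle and pericyte, Schwann and adipocyte sums. At D105 the fibroblast, tendon and cartilage, leukocyte, erythroid, adipocyte, and smooth muscle and pericyte sums were highest in replicate 2. That library was the one most often lowest among the members. The satellite cell and myoblast sum at D105 was at 90.2, 57.8 and 105 FPKM in replicates 1, 2 and 3. It was thus lowest in replicate 2 and highest in replicate 3, the libraries most often lowest and highest among the members. The endothelial sum was also highest in D105 replicate 3. The fibre and Schwann sums were highest in D105 replicate 1. At D85 the fibroblast, leukocyte, erythroid, Schwann and adipocyte sums were highest in replicate 1. The fibre, satellite cell and myoblast, and endothelial sums were highest in D85 replicate 3. The D85 sums of tendon and cartilage markers and of smooth muscle and pericyte markers were highest in replicate 2, as were most members. The part of any of these cells in the members' order was not tested.

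The counts of cell type markers called between D105 and D135 stand beside 35% of all loci called lower, or 6.96% after median-of-ratios scaling. Of 6 tested satellite cell and myoblast markers 4 fell between D105 and D135 and 0 rose, with summed levels of 43.3 to 52.7 FPKM at D135 against 57.8 to 105 FPKM at D105, where D105 replicate 2 was the lowest; after median-of-ratios scaling 2 fell, PAX7 and CDH15. PAX7, the satellite cell factor, averaged 0.518 FPKM at D135 and 1.97 FPKM at D105. Summed endothelial markers were at 174 to 213 FPKM at D135 and 234 to 249 FPKM at D105, and 2 of 8 fell, but after median-of-ratios scaling 0 fell and 1 rose. Summed fibroblast markers were at 1362 to 3218 FPKM at D135 and 2455 to 6667 FPKM at D105, where D105 replicate 2 alone was above 2473 FPKM. Of 6 fibroblast markers 1 fell, but after median-of-ratios scaling 0 fell and 1 rose. Leukocyte markers were at 14.7 to 19.7 FPKM at D135 and 16.7 to 38.2 FPKM at D105, the highest again in D105 replicate 2, and erythroid ones at 1.88 to 3.65 FPKM at D135 and 3.39 to 7.94 FPKM at D105, with 0 of 3 leukocyte markers and 0 of 1 erythroid marker called. Of the other lists, 3 smooth muscle and pericyte markers of 7 fell and 1 rose, 1 of 5 Schwann, 1 of 5 tendon and cartilage and 0 of 4 adipocyte markers fell. After median-of-ratios scaling 1 smooth muscle and pericyte marker fell and 1 rose, 1 Schwann marker fell, and 0 tendon and cartilage and 0 adipocyte markers were called. No list had a marker at 0 in every library. The part of any of these cells in the members' fall was not tested.

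Other genes of the same machinery, on lists chosen by role, gave 104 lower and 1 higher of 134 tested between D105 and D135, and 53 lower and 1 higher after median-of-ratios scaling. Among all loci 35% were called lower and 4.47% higher, or 6.96% and 10.6% after that scaling. Of 30 other spindle and cytokinesis genes 29 fell and 0 rose (23 after median-of-ratios scaling), with a median log2 change of -1.11. Among them NUSAP1, a spindle protein, averaged 2.61 ± 1.03 FPKM at D135 and 10.999 ± 1.69 FPKM at D105. CDCA8, borealin of the passenger complex, averaged 0.908 ± 0.485 FPKM at D135 and 4.10 ± 1.35 FPKM at D105, and ASPM, a spindle pole protein, 1.31 ± 0.341 FPKM at D135 and 5.63 ± 0.212 FPKM at D105 (SD, n = 3 each). Of 28 other kinetochore and centromere genes 23 fell and 0 rose (15 after that scaling), with a median of -0.69. CENPT averaged 0.807 ± 0.122 FPKM at D135 and 3.24 ± 1.01 FPKM at D105, and HJURP, the loader of CENPA, 0.969 ± 0.351 FPKM at D135 and 3.98 ± 0.689 FPKM at D105.

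Over all loci 35% were called lower, and 6.96% after median-of-ratios scaling. Of 15 cohesin and remaining condensin genes 13 fell, but 3 after median-of-ratios scaling, and of 16 genes of the anaphase-promoting complex and its partners 9 fell, but 1 after it. That gene was UBE2C, the enzyme that feeds ubiquitin to the complex in mitosis, which was at 3.94, 3.88 and 7.32 FPKM at D135 against 27.7, 20.2 and 28.9 FPKM at D105 (log2 change -2.17, adjusted p = 0.00121). RAD21, a cohesin subunit, averaged 22.1 ± 3.98 FPKM at D135 and 35.8 ± 3.82 FPKM at D105, a change that did not pass after scaling (adjusted p = 0.384), whereas NCAPG2 and ESCO2 of the same list fell under both scalings. UBE2S, which extends ubiquitin chains for the complex, averaged 7.98 ± 0.758 FPKM at D135 and 16.8 ± 4.13 FPKM at D105, and CDC16, a subunit of the complex, 6.03 ± 0.983 FPKM at D135 and 8.62 ± 1.19 FPKM at D105. After scaling neither passed (adjusted p = 0.0784 for UBE2S and 0.863 for CDC16).

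**Figure D5:**
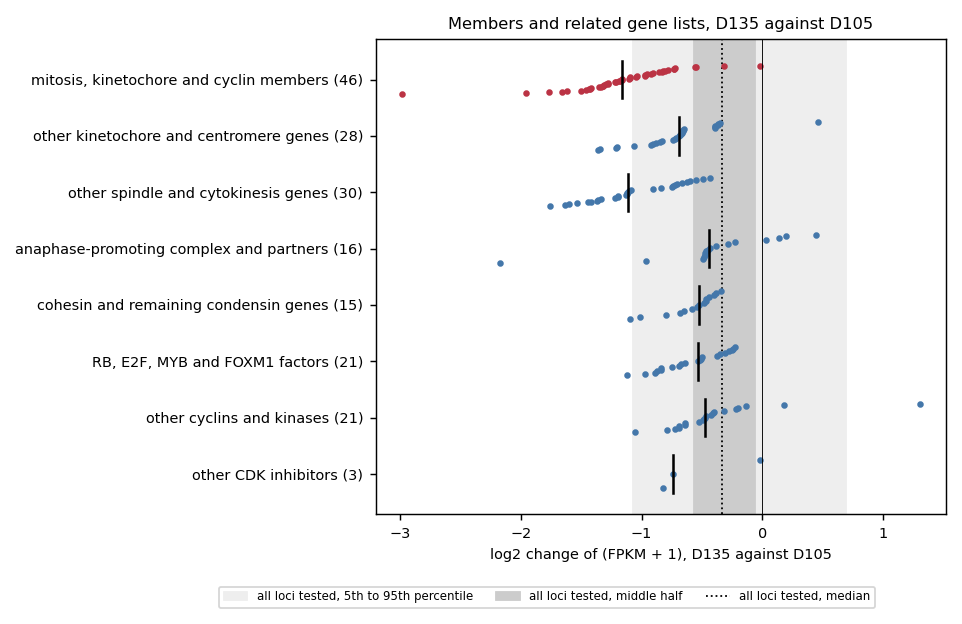
Each dot is the log2 change of FPKM + 1 of a tested gene for D135 against D105, with the members in the top row, a bar at each list's median and grey bands for the spread of all loci. Members and other spindle genes have medians of -1.17 and -1.11, and the cohesin, anaphase-promoting complex and cyclin lists have medians of -0.52, -0.44 and -0.48.

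Of 21 transcription factors of the RB, E2F, MYB and FOXM1 group 14 fell and 0 rose between D105 and D135, and 7 fell after median-of-ratios scaling. Among all loci 35% were called lower and 4.47% higher, or 6.96% and 10.6% after that scaling. MYBL2, an activator of mitotic genes, averaged 2.51 ± 0.252 FPKM at D135 and 6.69 ± 1.43 FPKM at D105, and E2F8, a repressor, 0.401 ± 0.161 FPKM at D135 and 1.501 ± 0.111 FPKM at D105. E2F1, an activator at the start of S phase, averaged 2.13 ± 0.860 FPKM at D135 and 4.68 ± 0.660 FPKM at D105, and its change did not pass after scaling (adjusted p = 0.148). Among 21 other cyclins and kinases 14 fell and 1 rose, or 3 and 1 after scaling. The gene that rose was CCNG1, cyclin G1, a target of p53 that does not drive mitosis, at 226, 252 and 260 FPKM at D135 against 90.0, 99.6 and 107 FPKM at D105 (log2 change 1.31, adjusted p = 0.000625, also called after scaling). CDK6, which like CDK4 pairs with D-type cyclins, was at 20.5, 19.7 and 20.9 FPKM at D85, 14.3, 14.2 and 12.8 FPKM at D105 and 6.59, 7.39 and 8.73 FPKM at D135. The CDK6 fall between the later days (log2 change -0.79, adjusted p = 0.00195) did not pass after scaling (adjusted p = 0.0717). CCNF, cyclin F, averaged 0.802 ± 0.115 FPKM at D135 and 2.77 ± 0.658 FPKM at D105. Of 3 other tested inhibitors 2 fell, CDKN1C, p57, to 12.7 ± 0.734 FPKM at D135 against 22.2 ± 4.997 FPKM at D105, and CDKN3 to 0.907 ± 0.204 FPKM at D135 against 2.36 ± 0.338 FPKM at D105. The CDKN1C change did not pass after scaling (adjusted p = 0.348).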

How the data were processed

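RNA of the longissimus dorsi was sequenced in 9 libraries, grouped by the day in their titles. Per the file headers, the authors deposited FPKM per locus. The tools named in the submitters' processing notes are cutadapt, Bowtie2 and TopHat2. Genome build, transcript assembler, counter: not given in the sources used here. The design text names several sequencer models without assigning libraries, so a run batch could not be examined. Names were matched to the table, and 1 gene on the other lists (TACC3) was matched by its gene number in a RefSeq gene table of ARS-UI_Ramb_v3.0, used for names and neighbours alone. Of 148 other pathway names 142 matched and 134 were tested, and of 71 marker names 66 and 52.

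A locus was tested if 3 or more libraries had 1 FPKM or more, on the scale log2(FPKM + 1), which understates changes of low genes, with limma 3.58.1 in R 4.3.3 (all 9 libraries in 1 fit, eBayes with a trend, no block, two-sided, Benjamini-Hochberg over all loci, threshold 0.05). The fit was tested on simulated data. Folds are ratios of mean FPKM. FPKM hold no counts, so no count test was run. The members and all lists were chosen with earlier results of these data known, so they are described by counts beside those over all loci, without a set test. Values by library are given for the 16 called members of largest change, cyclins, kinases and inhibitors, members spreading over 3-fold within a day with a mean of at least 1 FPKM, and the highest of each role; MAD2L1, TTK, CCNE1, CDC25C and the NUF2 values at D135 were added, some after their values were seen. From other lists up to 3 called genes were named, and 1 gene that this rule names is not reported here. Alternatives changed the pseudocount, filter, scaling, variance model, weights, libraries fitted, a replicate block, each library in turn and the sum of loci sharing a name. Figures used matplotlib 3.10.9 in Python 3.11.15.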

Additional observations from a re-analysis of the deposited data

How the results depend on the processing

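Over 21 alternatives 33 to 43 members fell for D135 against D105 and 37 to 45 for D135 against D85, and 0 rose. Median-of-ratios scaling gave 33 and 37, and quantile scaling gave 34 and 37. For D105 against D85 the number that fell was 0 in all 21. With all libraries kept, 2 to 5 members had an unadjusted limma p under 0.05 in that comparison. Of the 43 members called lower at D135 against D105, 33 kept the call in all alternatives that tested them and 37 with each library left out. Of the 45 called lower against D85, 37 and 40 did. The calls against D85 that were lost with a library left out were those of MAD2L1, CDKN2C, BIRC5, NCAPD2 and CCND1. With a library left out, 38 to 43 members fell against D105 and 41 to 44 against D85. The replicate block left 41 and 44; same-numbered libraries did not deviate together (r between -0.07 and 0.06 over 9 pairs), so the numbers were not taken as pairs.

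The members' median relative to all loci was -1.21 (D135 against D105), -1.44 (D135 against D85) and 0.48 (D105 against the midpoint of D85 and D135) with a pseudocount of 0.1, and -0.99 and -1.16 in the first 2 without a filter. The count of members called above that midpoint at D105 was 2; it was 0 without a filter, with a filter of 2 FPKM, after median-of-ratios, quantile or top-50 scaling and with the replicate block, 1 without a variance trend, 9 with library weights, and 0 to 4 with a library left out. CDKN1B turned positive for D135 against D105 after median-of-ratios (0.40), quantile (0.29) and top-50 scaling (0.069), with library weights (0.11), without D105 replicate 2 (0.28) and without D135 replicate 3 (0.20; -0.19 to 0.28 over the libraries left out), and for D135 against D85 after median-of-ratios (0.14) and quantile scaling (0.034); the cause was not tested. Counts over all loci split as 585 higher and 4579 lower for D135 against D105, against 1389 and 911 after median-of-ratios and 986 and 1072 after quantile scaling. For D135 against D85 they were 903 and 5194, against 1952 and 1642, and 1599 and 1943. The planned search of promoter motifs was not run. At D135 11 of the 46 members averaged under 1 FPKM, where FPKM + 1 compresses changes and few fragments limit precision.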
